A study of Mus musculus with 3 samples.

Results

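The genes described here encode proteins of the lipid droplet surface, namely the perilipins Plin1 to Plin5 and the CIDE proteins Cidec and Cidea. They were chosen by name, and because the value of Plin4 lay at least 2-fold above wild type in both mutant arrays. Of the 7 genes, 6 had a probe set that the platform annotation pairs with that gene alone, out of 18193 genes so measured. They were read by 7 probe sets, since Plin5 has a pair of them. No such probe set was found for Plin1, which is not analysed here. Because the choice rested on the contrast between uncv null and wild type, the values of all these genes in that contrast are descriptions and carry no test.

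The samples were dorsal skin from female BALB/cA mice, 4 days of age, and total RNA of each sample was read on its own 1-colour array. The wild type group (uncv +/+) had 1 array and the uncv null group (uncv -/-) had 2, called null 1 and null 2 below. The mice were sisters from uncv heterozygous parents, and no treatment is named for either group. Uncovered (uncv) is a mouse mutation of the whole animal that leaves the coat sparse or absent, known to affect Rhbdf2, the gene of iRhom2. Each value is an RMA expression value on a log2 scale, so a difference of 1 is a 2-fold difference. Whole skin was used, so more cells of a type and more RNA per cell cannot be told apart. Keratinocyte markers averaged 11.4, 11.4 and 11.6 in wild type, null 1 and null 2, and fibroblast markers 11.4, 11.3 and 10.9. Both are the cells that make up skin. Fibroblast markers lay below wild type in both null arrays in all 6 genes, with median differences of -0.09 and -0.43. Keratinocyte markers lay above it in both arrays in 3 of 8 genes and below it in 1.

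Lipid droplets store triglyceride and sterol esters under a single layer of phospholipid. Perilipins coat that layer and control how lipases reach the lipid, and CIDE proteins sit where droplets touch and let lipid pass from the smaller to the larger one. In skin, droplets fill the adipocytes under the dermis and the sebocytes of the sebaceous gland. Several of these genes are known targets of PPARs, nuclear receptors that switch on genes of fat storage and fat use.

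Plin4 was the gene of this family that stood farthest above wild type, followed by Cidec, while Plin2 and Plin3 stood above it by less. Cidea lay above wild type on 1 uncv null array and below it on the other, and Plin5 was near or under the array median throughout. The genes of this family that could be compared all had their highest value in null 2. Only genes whose log2 values averaged 5 or more across the arrays were compared, and 5 of the 6 genes reached that level. In this set, 1 gene passed a 2-fold rule, which asks that both null arrays lie at least 1 log2 unit from wild type on the same side. That gene was Plin4, which the choice of genes fixed. Over all 8456 genes that reached the same level, 0.225% were higher by that rule and 0.296% lower. At the edge of the rule, Pck1 lay just inside with differences of 1.04 and 1.57, and Blnk just outside with 0.98 and 1.25.

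**Figure D1:**
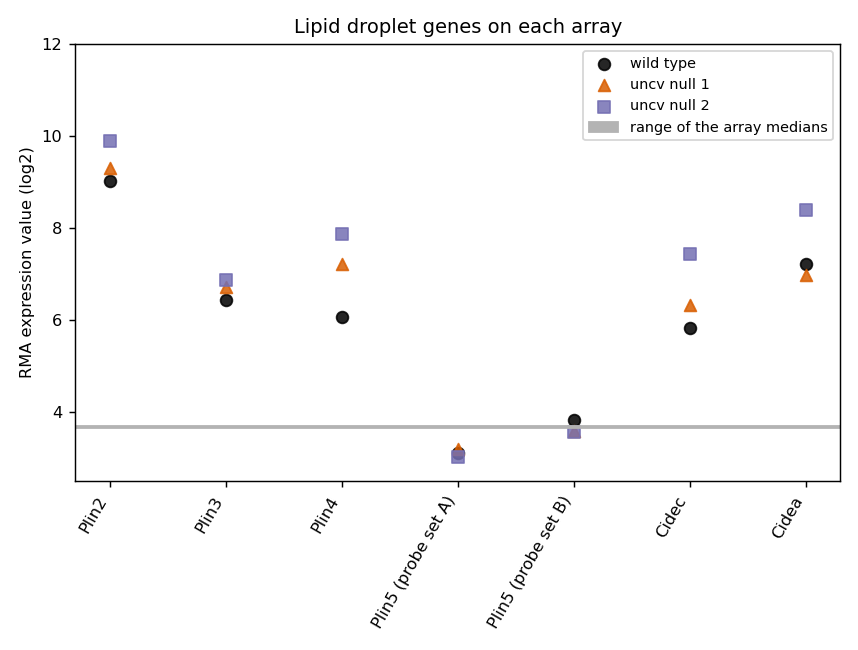
Each point is the RMA expression value (log2) of 1 probe set on 1 array, with circles for wild type, triangles for null 1 and squares for null 2. The grey band spans the medians of the 3 arrays, from 3.65 to 3.70. Plin4 is at 6.06 in wild type and at 7.21 and 7.87 in the null arrays, and both Plin5 probe sets lie close to the band. Heights of different genes are not comparable, because probe sets differ in brightness.

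Plin4 encodes a perilipin of adipocytes and muscle that is known to coat small, newly formed droplets. Its value was 6.06 in wild type, 7.21 in null 1 and 7.87 in null 2. The uncv null arrays averaged 7.54 ± 0.46 (SD, n = 2). Wild type lay below both of them, and the gap between the nearer uncv null array and wild type exceeded the gap of 0.66 between the uncv null arrays. The differences from wild type were 1.15 and 1.81, which correspond to 2.22-fold and 3.50-fold. Ranked by the smaller of the pair of differences, Plin4 stood at place 14 of the 8456 genes. A place within the 19 genes higher by the 2-fold rule was fixed by the choice of genes.

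Plin2 encodes the perilipin that is found on droplets of most cell types and is degraded when it is not bound to lipid. Its value was 9.02 in wild type, 9.30 in null 1 and 9.90 in null 2. Wild type was lowest, but it lay closer to null 1, by 0.28, than the uncv null arrays lay to each other, by 0.60. The uncv null mean was 9.60 ± 0.43 (SD, n = 2), and the differences were 0.28 and 0.88.

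Plin3 encodes a soluble perilipin that moves from the cytosol to nascent droplets. It had values of 6.43 in wild type, 6.72 in null 1 and 6.86 in null 2. The uncv null arrays were close to each other (6.79 ± 0.10, SD, n = 2), and both lay above wild type, by 0.29 and 0.44. The mean of 18 probe sets for hybridisation spike-ins, RNAs added in equal amounts, lay 0.70 above wild type in null 1 and 0.43 above it in null 2. In null 1 that is more than the differences of Plin3, Plin2 and Cidec and more than the median of every list given below, and in null 2 it is about as much as the difference of Plin3. The 3 probe sets for 18S ribosomal RNA, the other control given here, averaged 4.34 above wild type in null 1 and 0.67 above it in null 2. The part of these offsets in the values of single genes and lists, and in how null 1 and null 2 differ, was not tested.

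Plin5 encodes the perilipin of heart, muscle and other tissues that burn fatty acids, where it ties droplets to mitochondria. One of its probe sets had values of 3.11, 3.19 and 3.02 in wild type, null 1 and null 2, and the other had 3.82, 3.57 and 3.57. The median over all probe sets was 3.70, 3.70 and 3.65 on the same arrays. Neither probe set was therefore shown to lie above background, so the size of a Plin5 difference is not stated.

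Cidec encodes the protein that fuses droplets into the single large droplet of white adipocytes. Its value was 5.84 in wild type, 6.32 in null 1 and 7.44 in null 2. Wild type was lowest, yet null 1 lay nearer to wild type (0.49) than to null 2 (1.12). The uncv null mean of 6.88 ± 0.79 (SD, n = 2) hence rested mainly on null 2, where the difference from wild type was 1.60 (3.04-fold).

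Cidea encodes a related protein, known from brown adipocytes and from the sebaceous gland of mice. It had values of 7.21 in wild type, 6.97 in null 1 and 8.39 in null 2. Wild type lay between the uncv null arrays, so the groups overlapped. The differences were -0.24 and 1.19, and the uncv null mean was 7.68 ± 1.01 (SD, n = 2). The sign of the Cidea difference thus depended on which uncv null array was read.

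Across the 5 genes, 4 lay above wild type in both null arrays, where 38.8% of all tested genes did so. In all 5 genes null 2 had the highest value of the 3 arrays, against 44.8% of all tested genes. In 2 of them, Plin3 and Plin4, the uncv null arrays were closer to each other than the nearer one was to wild type, as in 29.7% of all tested genes. The median difference over the 5 genes was 0.29 in null 1 and 1.19 in null 2, beside 0.03 and 0.07 over all tested genes. Both sets of differences share the single wild type array, and these shares and medians include Plin4, so they support no statement about the family. Over the 13559 probe sets that reached the level filter, 0% passed limma's test at an adjusted p of 0.05 (smallest adjusted p = 0.9996). An unadjusted p under 0.05 was reached by 391 of them (2.88%), 205 higher and 186 lower in uncv null skin. P-values here measure only the spread between the uncv null arrays, each probe set's own being moderated by that of all tested probe sets. Wild type is taken to vary as those arrays do.

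**Figure D2:**
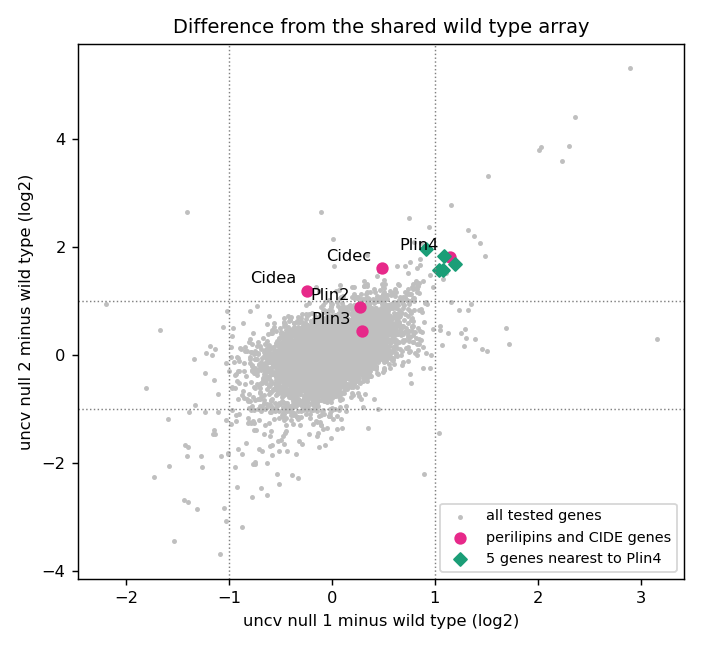
Each grey point is 1 of the 8456 tested genes, with its difference between null 1 and wild type on the horizontal axis and that between null 2 and wild type on the vertical axis (both log2). Pink circles are the 5 tested perilipin and CIDE genes, green diamonds are the 5 genes nearest to Plin4, and dotted lines mark 2-fold. Plin4 is the single pink point beyond 2-fold on both axes, and Cidea lies left of 0 on the horizontal axis.

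The 5 genes whose differences lay nearest to those of Plin4 were found by Euclidean distance over the pair of differences, that is over 3 arrays. In order of distance they were Mybpc2 at 0.064, Slco2a1 at 0.14, Aqp9 at 0.25, Pck1 at 0.26 and Klk6 at 0.27. Mybpc2 encodes a myosin-binding protein of fast muscle fibres and had values of 5.78, 6.87 and 7.61 in wild type, null 1 and null 2. Pck1 encodes the enzyme that supplies glycerol phosphate for triglyceride in adipocytes, and it had values of 4.27, 5.31 and 5.84. Aqp9 encodes a channel for water and glycerol and had values of 4.14, 5.22 and 5.71. The wild type values of Pck1 and Aqp9 are below the level filter, so these genes entered through their uncv null values. Slco2a1, a prostaglandin transporter, and Klk6, a secreted protease, complete the set, with mean differences of 1.43 for each.

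In the RefSeq annotation of GRCm38.p6, Plin4 and Plin5 are direct neighbours on mouse chromosome 17, with 0 genes between them. Plin3 follows after 7 further protein-coding genes. Neighbours were taken as these 7 genes and 5 more on each side, 17 in all, of which 16 had a probe set and 10 reached the level filter. Of those 10, 4 lay above wild type in both null arrays and 4 below, beside 38.8% and 26.4% of all tested genes. The protein-coding gene next to Plin5 is Lrg1, a secreted glycoprotein induced in inflammation, which passed the 2-fold rule and was singled out after its values were seen. Lrg1 had values of 3.24 in wild type, 6.13 in null 1 and 8.54 in null 2, and its wild type value was under the array median, so no fold is given. It is among the 4 neighbours above wild type, and it reached the level filter through its uncv null values. Plin5, between Plin4 and Lrg1, was near or under the median of each array. On the far side of Plin4, Hdgfl2 had values of 4.32, 4.27 and 4.14 and Ubxn6 6.67, 6.83 and 7.02. The other genes of the stretch that reached the filter had mean differences from -0.34 (Fem1a) to 0.53 (Dpp9), Plin3 included.

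**Figure D3:**
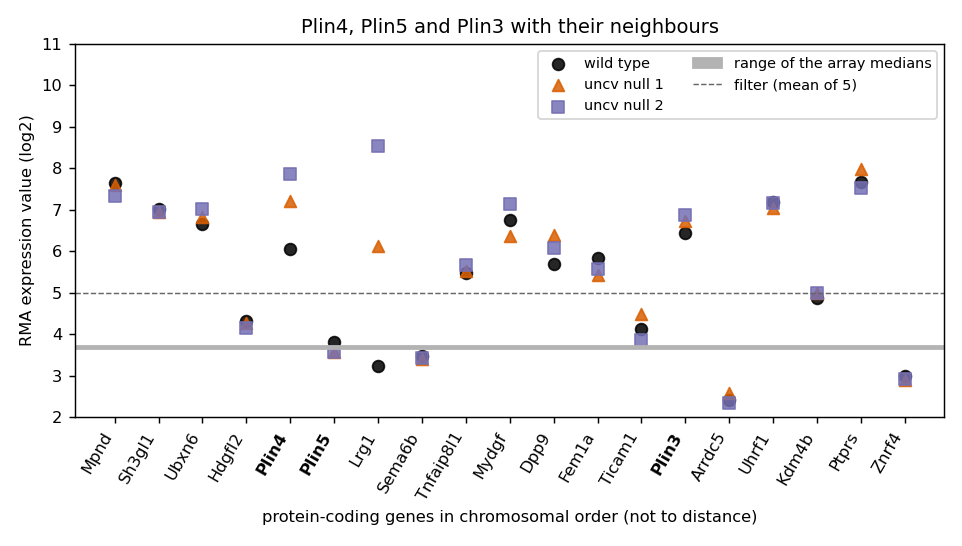
RMA expression values (log2) on the 3 arrays are shown for Plin4, Plin5, Plin3 and the neighbouring protein-coding genes that had a probe set, in chromosomal order with even spacing. The grey band spans the array medians and the dashed line is the level filter. Plin4 and Lrg1 are spread widely between the arrays. Plin5, which lies between them, is close to the grey band and was not shown to lie above background.

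Promoter sequences are shown for Plin4, Cidec and Plin2, the perilipin and CIDE genes with the largest mean differences among those above wild type in both arrays. They are from RefSeq on GRCm38.p6, read 5′ to 3′ on the minus strand, and end at the outermost start of the gene model. Windows of 300 bases, from 250 before to 50 after an annotated start, were searched on both strands for 4 motifs. These were AGGTCANAGGTCA, the repeat that PPARs bind, its repeat unit AGGTCA, the E-box CACGTG and the CCAAT box. Capitals mark a match to any of them in the stretch shown.
Plin4, chr17:56109949-56110032: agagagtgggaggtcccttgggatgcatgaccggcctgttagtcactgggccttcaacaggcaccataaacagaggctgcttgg
Plin2, chr4:86670218-86670309: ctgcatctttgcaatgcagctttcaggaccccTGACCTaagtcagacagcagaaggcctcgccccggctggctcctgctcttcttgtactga
Cidec, chr6:113435761-113436010: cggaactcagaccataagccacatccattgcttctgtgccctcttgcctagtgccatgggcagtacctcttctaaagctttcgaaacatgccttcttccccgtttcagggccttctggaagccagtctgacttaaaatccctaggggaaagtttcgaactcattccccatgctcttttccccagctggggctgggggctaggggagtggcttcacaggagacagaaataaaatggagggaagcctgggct
The full repeat was in none of the windows for Plin1, Plin2, Plin3, Plin4, Plin5 or Cidec, and in 0.040% of all 32851 promoter windows. The unit AGGTCA was found for Plin2, on the opposite strand as shown, and in both windows of Plin5, against 16.3% of all windows. Plin2 also held CACGTG, as did 7.15% of all windows. CCAAT, which 37.4% of all windows held, was found for Plin2, Plin3, Plin4 and 1 of the 2 Plin5 windows. Neither Cidec window held any of the 4 motifs. A match or its absence concerns only these letters in these windows.

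Other genes of lipid storage were read as 5 lists, named by role and together holding 75 genes, of which 64 had a probe set and 47 reached the level filter. None of the 47 passed limma's test (0 calls, adjusted p of at least 0.9996 each). An unadjusted p under 0.05 was reached by 4, beside 2.88% of all tested probe sets. Fitm1, lower in both uncv null arrays, and Pck1, under the filter's level in wild type, are among the 4. Of the 47, 31 lay above wild type in both null arrays and 5 below, beside 38.8% and 26.4% of all tested genes. With no level filter, which lets in genes that are dim in uncv null skin, 36 of 64 lay above and 9 below. The shares over all genes were taken with the filter only, so counts with no filter, here and below, have no like share beside them. In the lists below, values are given for null 1 and then null 2 as differences from wild type.

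Lipolysis genes, which release the lipid that perilipins guard, had medians of 0.42 and 0.60, with 6 of 8 above wild type in both arrays and 1 below. Pnpla2, the first lipase of triglyceride breakdown, was at 0.74 and 1.00, and Lipe, hormone-sensitive lipase, at 0.50 and 1.12. G0s2, which inhibits the Pnpla2 protein, was at 0.98 and 0.48. The only one lower in both was Prkaca, a catalytic subunit of the kinase that phosphorylates perilipin, at -0.15 and -0.83. Pnpla2 and its inhibitor G0s2 were thus both above wild type.

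Genes of triglyceride synthesis and droplet formation had medians of 0.18 and 0.35, with 8 of 12 above wild type in both arrays and 2 below. Agpat2, an acyltransferase of phosphatidic acid synthesis, was at 0.51 and 0.93, and Dgat1, which makes triglyceride, at 0.34 and 1.04. The largest mean difference of this list, in absolute size, ran the other way. Fitm1, a droplet-forming protein of muscle, was at -0.91 and -0.81, from values of 6.48 in wild type to 5.57 and 5.67. Skeletal muscle markers, given below, were mostly lower, while Mybpc2, of fast muscle fibres, was higher, at 1.09 and 1.83. The part of muscle in the Fitm1 values was not tested.

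The list of regulators held PPAR and C/EBP genes and also other regulators of lipid genes. All 10 genes of this list that reached the filter lay above wild type in both arrays, and the medians were 0.38 and 0.31. Ppara, a PPAR under the filter, was at 0.19 and -0.37. Pparg, the master regulator of fat cells, was at 0.53 and 1.02, Ppard at 0.65 and 0.52, and Cebpd at 1.28 and 0.16. Ppard and Cebpd were under the filter's level in wild type, at 4.94 and 4.99, and entered through their uncv null values. With no filter 11 of 14 regulators lay above wild type in both arrays and 1 below, and with the mean of probe sets in place of the brightest one 9 of 10 lay above. The medians of PPAR target genes of lipid use were lower, at 0.18 and 0.21, with 7 of 11 above in both and 0 below. Pck1 led them, at 1.04 and 1.57, followed by Angptl4, a secreted inhibitor of lipoprotein lipase, at 0.41 and 0.96, and by Lpl, that lipase, at 0.57 and 0.45. Of these genes Pck1 alone passed the 2-fold rule.

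The remaining droplet-associated proteins had no common direction. Their medians were -0.10 and -0.084 over 6 genes, with 0 above wild type in both arrays and 2 below. Hsd17b11, a droplet-bound dehydrogenase, was at -0.07 and -0.32, Vim, an intermediate filament that can cage droplets, at -0.14 and -0.25, and Rab18, a droplet GTPase, at 0.00 and 0.39. In null 2 alone 3 of the 6 lay above wild type, with Ldah, a droplet-associated hydrolase, highest at 0.51.

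**Figure D4:**
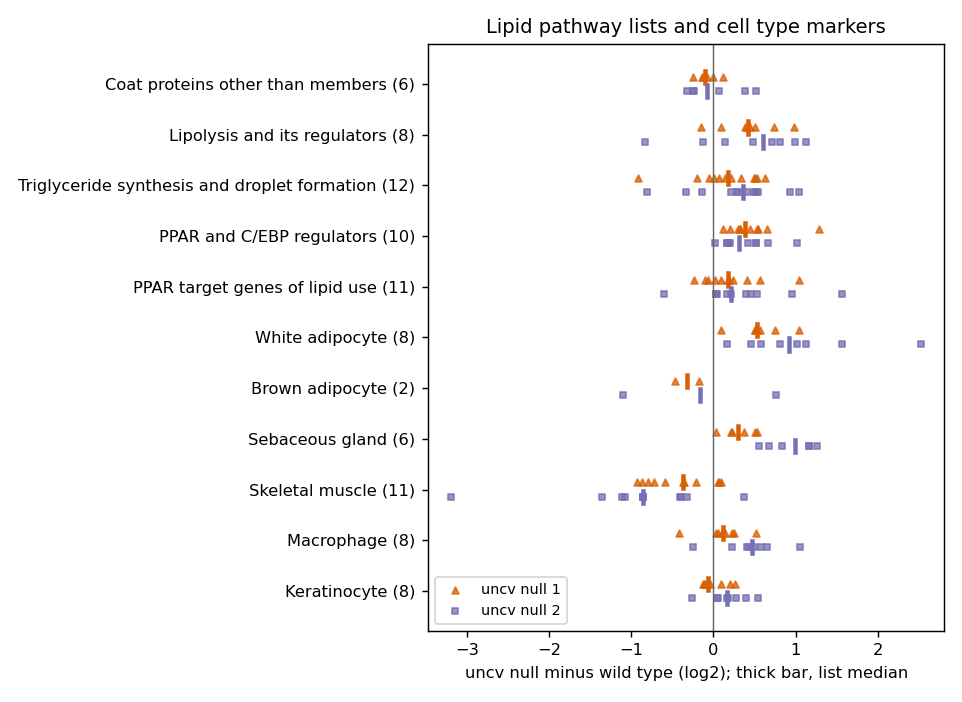
Each point is the difference from wild type (log2) of 1 gene, with triangles for null 1 and squares for null 2, and thick bars mark the median of each list on that array. The number of genes past the level filter stands in brackets. Fibroblast and endothelial markers are not drawn. The white adipocyte and sebaceous gland markers past the filter lie to the right of 0 on both arrays and most skeletal muscle markers to the left.

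Markers of the cells that hold droplets are set beside these values. All 8 white adipocyte markers past the filter, of 12 with a probe set, lay above wild type in both arrays, with medians of 0.53 and 0.92, and their mean log2 level was 8.03 in wild type, 8.59 in null 1 and 9.06 in null 2. Pck1 entered this count through its uncv null values, and Thrsp, under the filter, was lower in both arrays, at -0.60 and -0.40, so that with no filter 11 of 12 lay above wild type and 1 below. Of that list, 7 of 14 genes also stand in a list above, and only 3 of the 8 past the filter stand in none. For the marker counts past the filter, here and below, the shares over all tested genes were 38.8% above wild type in both arrays and 26.4% below. Retn, an adipokine and the marker with the largest mean difference, was at 0.75 and 2.53, so the difference of Plin4 was larger than that of Retn in null 1 and smaller in null 2. Adipoq, the adipokine of mature fat cells, had values of 9.88, 10.4 and 10.7 in wild type, null 1 and null 2, and its differences of 0.54 and 0.81 were smaller than those of Plin4.

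Of 7 sebaceous gland markers with a probe set, 6 passed the filter and all 6 lay above wild type in both arrays, with medians of 0.30 and 1.00 and mean levels of 7.54, 7.85 and 8.48. Scd3, at 4.57 in wild type, entered through its value in null 2, and the marker left out, Mc5r, was lower in both arrays, at -0.97 and -0.33. Cidea, known from that gland, shared the larger value in null 2 and not the direction in null 1. Of the brown adipocyte markers 2 reached the filter, with medians of -0.32 and -0.17. They parted in null 2, with Cox8b at -0.47 and -1.10 and Elovl3 at -0.18 and 0.76. The defining marker Ucp1 had values of 3.10, 3.40 and 3.48, under each array's median. Macrophage markers, for cells known to take up lipid, were higher in 6 of 8 genes, with medians of 0.12 and 0.47 and mean levels of 6.65, 6.76 and 7.10. Skeletal muscle markers went the other way, with 8 of 11 lower and 1 higher in both, medians of -0.37 and -0.86, and mean levels of 9.84, 9.42 and 8.93. Endothelial markers were lower in both arrays in 1 of 4 genes and higher in 0. The part of any of these cell types in the values of the perilipin and CIDE genes was not tested.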

How the data were processed

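Per the submitters' processing notes, the authors made the deposited log2 values with RMA, which corrects background, normalizes between arrays and summarises probe sets. They run from 1.96 to 13.1. The version of RMA is not given in the sources used here. RNA extraction is described differently in the labels and in the series' design text. No depth applies to arrays, and their number limits the precision.

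Of 45101 probe sets, 64 are controls. Of the rest, the platform annotation pairs 34945 with 1 gene symbol, 932 with several and 9160 with none. Through Entrez identifiers 34741 matched RefSeq's gene table, and 0 symbols changed. A gene with several probe sets was read by the brightest one on average, and levels were filtered at a mean of 5. limma 3.58.1 in R 4.3.3 (lmFit, eBayes, Benjamini-Hochberg adjustment) was fitted on all 13559 filtered probe sets with 1 residual and 4.75 prior degrees of freedom. The fit was also tested on simulated data with large planted differences and equal noise in all probe sets. That test does not show which differences these 3 arrays could detect. Genes were named by rule as all family members, the 3 largest mean differences of each list and the 5 genes nearest to Plin4. Prkaca, Ldah, Ppara, Adipoq, Retn, Thrsp, Scd3, Mc5r, Ucp1, Cox8b, Elovl3 and Lrg1 were named after their values were seen. So were other neighbours and the genes at the edge of the 2-fold rule. Members, lists and motifs were chosen with earlier results of these data known. Other filters, scalings, ways to combine probe sets, an intensity trend, other thresholds and leaving out each uncv null array were tried.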

Additional observations from a re-analysis of the deposited data

How the results depend on the processing

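No paired analysis was possible because wild type is 1 sample and the labels pair it with neither uncv null sample. limma's count stayed at 0 under every alternative that could be fitted; leaving out an uncv null array leaves no residual degree of freedom, so limma was not run there. The count of genes past the 2-fold rule was 44, and 11 at a minimum mean of 7, 240 at 1.5-fold, and 80 to 294 when 1 uncv null array was left out. Plin4 was the 1 family gene past the rule under the alternatives that kept both arrays; without uncv null replicate 2 the count was 1, and without uncv null replicate 1 it was 3, with Cidec and Cidea added. Plin4 lay between 1.15 and 1.81 under all alternatives, and Cidea changed sign without uncv null replicate 2. Of 30 recomputed family values, 3 moved beyond the spread between the uncv null arrays, all for Plin5, which is near the array median. For the Plin5 probe set used, that spread was very small (SD 0.00049, n = 2), so small shifts passed it. Leaving out 1 of the uncv null arrays cannot move a value beyond the spread between those arrays, by its construction.

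List medians of the mean difference moved as follows. For the other droplet proteins the median was -0.076, and -0.13 at a minimum mean of 7, -0.055 when normalized again by quantiles, -0.10 when centred, -0.10 with the mean of probe sets, and from -0.10 to -0.084 with 1 array left out. For PPAR and C/EBP regulators it was 0.45, and 0.24 with no filter, 0.28 with the mean of probe sets, and 0.31 to 0.38 with 1 array left out. For PPAR targets it was 0.13, and 0.19 by quantiles, 0.10 when centred, and 0.18 to 0.21 with 1 array left out. For lipolysis it was 0.59, and 0.42 to 0.60 with 1 array left out. For triglyceride synthesis it was 0.25, and 0.51 at a minimum mean of 7, where 4 genes were left. Fewer genes entered under the higher filter, and the cause of the other changes was not tested. With the mean of probe sets Rab18 was at -0.10 in place of 0.19.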
